A study of Mus musculus with 24 samples.

Results

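Fatty acid oxidation and ketogenesis were followed through 40 genes, matched by symbol: enzymes and transporters of mitochondrial and peroxisomal beta-oxidation, enzymes that make or split acyl-CoA, 1 enzyme of ketone bodies and 3 genes of control and coenzyme turnover. The list was drawn up with earlier results of these data known. Each symbol matched 1 Ensembl row of the deposited table, so the 40 are a small fraction of its 56205 rows, and all 40 were among the 14109 genes with enough reads to be tested. Poly(A) RNA came from whole livers of C57BL/6J mice, an inbred strain with no transgene here. After 20 weeks of feeding there were 12 libraries from the methionine-choline deficient (MCD) diet and 12 from its control diet. The MCD diet is a high-fat diet by the study's methods. They do not give the fat content of its control diet, and the part of dietary fat in the values was not tested. Among mouse models of steatosis with fibrosis, the study's results name a high-fat diet lacking choline, with defined amino acids (CDAHFD). Whether CDAHFD and MCD mean the same diet is not stated, nor is the methionine content of the MCD diet. The study used mice of both sexes of this strain, but the labels give neither sex, age nor batch for a single library, so each diet was treated as 1 group.

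Beta-oxidation removes acetyl-CoA units from fatty acids that have first been bound to coenzyme A. In mitochondria long-chain acyl groups enter through the carnitine shuttle, pass through chain-length-specific dehydrogenases, a hydratase, a second dehydrogenase and a thiolase, and hand electrons to the respiratory chain through the electron transfer flavoprotein. Peroxisomes shorten very-long-chain, branched and dicarboxylic acids, and in the fasting liver the acetyl-CoA formed in mitochondria is turned into ketone bodies. Many of these genes are known targets of the nuclear receptor PPARα, the product of Ppara.

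PPARα binds a direct repeat, and the promoters of the members were searched for its textbook form, 2 copies of AGGTCA separated by any 1 base, on either strand and with at most 2 mismatches over both copies. The windows ran from 250 bases before to 50 after each RefSeq transcript start (GRCm38.p6). A match was present in 4 of the 34 members that had a promoter entry (11.8%) and in 1190 of 27025 genes with an entry (4.40%). Crat, Acaa2, Decr1, Hsd17b4, Abcd2 and Vnn1 had no entry. The 4 sites are shown because their genes come back below with their expression values. They lie at chr9:55512300-55512328 (minus strand) for Etfa, chr9:108662134-108662162 (plus) for Slc25a20, chr12:84038358-84038386 (plus) for Acot4 and chr13:91741403-91741431 (plus) for Acot12. Each is printed 5′ to 3′ on the strand of its gene, with the matched letters in capitals.
Etfa: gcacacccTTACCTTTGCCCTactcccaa
Slc25a20: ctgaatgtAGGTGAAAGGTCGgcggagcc
Acot4: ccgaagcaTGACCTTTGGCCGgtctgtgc
Acot12: taggacccTGACCTCTCACCTcctaagca
The Acot12 match had 1 mismatch and the others had 2. The Slc25a20 match reads in the direction of its gene and begins 6 bases after the transcript start, and the other 3 read in the opposite direction and lie upstream of it. A match describes these letters and is not a measured binding site.

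Depth was similar in both diets, with total counts from 16793207 to 24915175 per control library and from 16388650 to 24577848 per MCD library. Abundance is given as CPM, counts divided by library size after scaling by the trimmed mean of M values (TMM). The scaling factors of the diets did not overlap (0.642 to 0.973 in control, 1.07 to 1.26 in MCD), so that the choice of scaling moved every gene: over all tested genes the median change was -0.10 (log2) on the TMM scale, 0.05 with upper-quartile factors and 0.27 with total counts alone. Control replicate 12 stood apart. It had the lowest factor, and its deviation from the diet mean fell with transcript length across genes (Spearman's rho -0.508, against -0.255 to 0.447 in the other 23 libraries). It was the highest control library for 13 members and the lowest for 9, and values that it moved are given with and without it where it changed a call or a direction. Control replicate 3, which had the rho of 0.447, was the lowest control library for 17 members.

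Diet was compared with edgeR's quasi-likelihood test over all genes, and a gene was called higher or lower at a false discovery rate (FDR) of 0.01 or less with an absolute log2 fold change above 0.5. Changes below are log2 fold changes, MCD over control, with their standard error (SE). On the TMM scale 21 of the 40 members were lower in MCD livers, where 19.1% of all tested genes were, and 1 member, Pdk4, was higher, where 19.2% of all tested genes were. The other 18 did not pass, although 6 of these (Cpt2, Acadl, Hadhb, Hadh, Decr2 and Bdh1) met the FDR and missed only the fold limit. When the FDR limit was 0.05 and no fold was required, 30 members were lower, where 37% of all genes were. For 6 members every MCD library lay below every control library (Crat, Acsl5, Hadha, Etfdh, Acaa1b and Hsd17b4), a pattern that 4.88% of all genes showed. No member had all MCD libraries above all control libraries, which 9.5% of all genes did.

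The number of lower members followed the scaling. It was 13 with upper-quartile factors (12.1% of all genes) and 8 with total counts alone (6.01% of all genes), where Acsl4 joined Pdk4 as higher (32.2% of all genes). The 8 were also lower in the other scalings: Crat, Acsl5, Etfdh, Acaa1b, Abcd3, Acot1, Acot3 and Acot4. Without control replicate 12, 16 of the 21 stayed lower (17.9% of all genes) and Acadvl, Hadha, Acaa2, Etfa and Decr1 fell short of the fold limit. The distance between the members and all genes moved less. The median log2 fold change of the 40 was -0.50 beside -0.10 for all genes on the TMM scale, and -0.12 beside 0.27 with total counts alone, so the members lay 0.40 and 0.39 below the median of all genes.

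**Figure D1:**
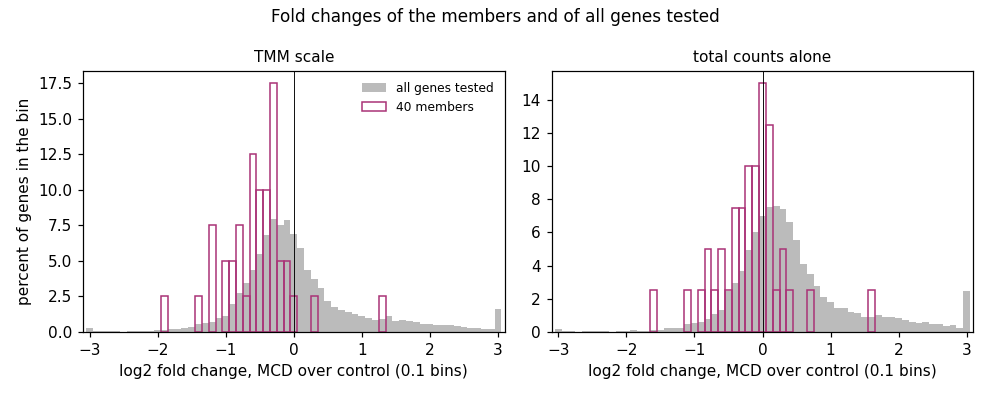
Distribution of log2 fold changes, MCD over control, as the percent of genes in each 0.1-wide bin (vertical axis), for all 14109 tested genes (grey) and the 40 members (outlined), on the TMM scale (left) and with total counts alone (right). Values beyond the axis are drawn in the end bins. Both distributions shift to the right with total counts alone, and the members keep a median about 0.40 below that of all genes.

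Hepatocytes carry most of these enzymes, so their markers were read beside the members. Of 12 hepatocyte markers 6 were lower, with a median log2 fold change of -0.54, beside -0.50 for the members. With total counts alone none of the 12 passed in edgeR (5 were lower at an unadjusted p under 0.05) and their median was -0.18. Their summed level was 101973 to 213946 CPM in control and 77822 to 111131 CPM in MCD livers. Control replicate 12 was the highest, and without it the control range ended at 163688 CPM, F2 lost its call and Cps1 gained one. Monocyte-derived macrophage markers (8 of 8 higher), mesenchymal markers (9 of 10 higher, Lrat lower but not with total counts alone), cholangiocyte markers (6 of 6 higher), lymphocyte markers (5 of 7 higher) and proliferation genes (5 of 5 higher) moved with diet in the other direction. Their summed ranges in control and MCD livers were 79.9 to 229 and 1424 to 3380 CPM for the macrophage markers, 174 to 569 and 798 to 1416 for the mesenchymal ones, 3.84 to 15.3 and 46.0 to 109 for the cholangiocyte ones, 3.42 to 10.4 and 11.4 to 26.3 for the lymphocyte ones, and 3.67 to 14.5 and 19.4 to 32.3 for proliferation. Kupffer cell markers (5 of 6 lower, 149 to 445 against 81.3 to 297 CPM) and endothelial markers (5 of 6 lower, 190 to 283 against 105 to 175 CPM) moved down on the TMM scale, and with total counts alone 2 of 6 passed in each list. Without control replicate 12 the endothelial count was 4 (Clec4g lost its call), and with upper-quartile factors it was 3. With a block for replicate number in the fit, 3 of 6 Kupffer cell markers were lower. The part of cell composition in the members' values was not tested, and in whole liver fewer hepatocytes and less RNA per hepatocyte cannot be told apart.

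**Figure D2:**
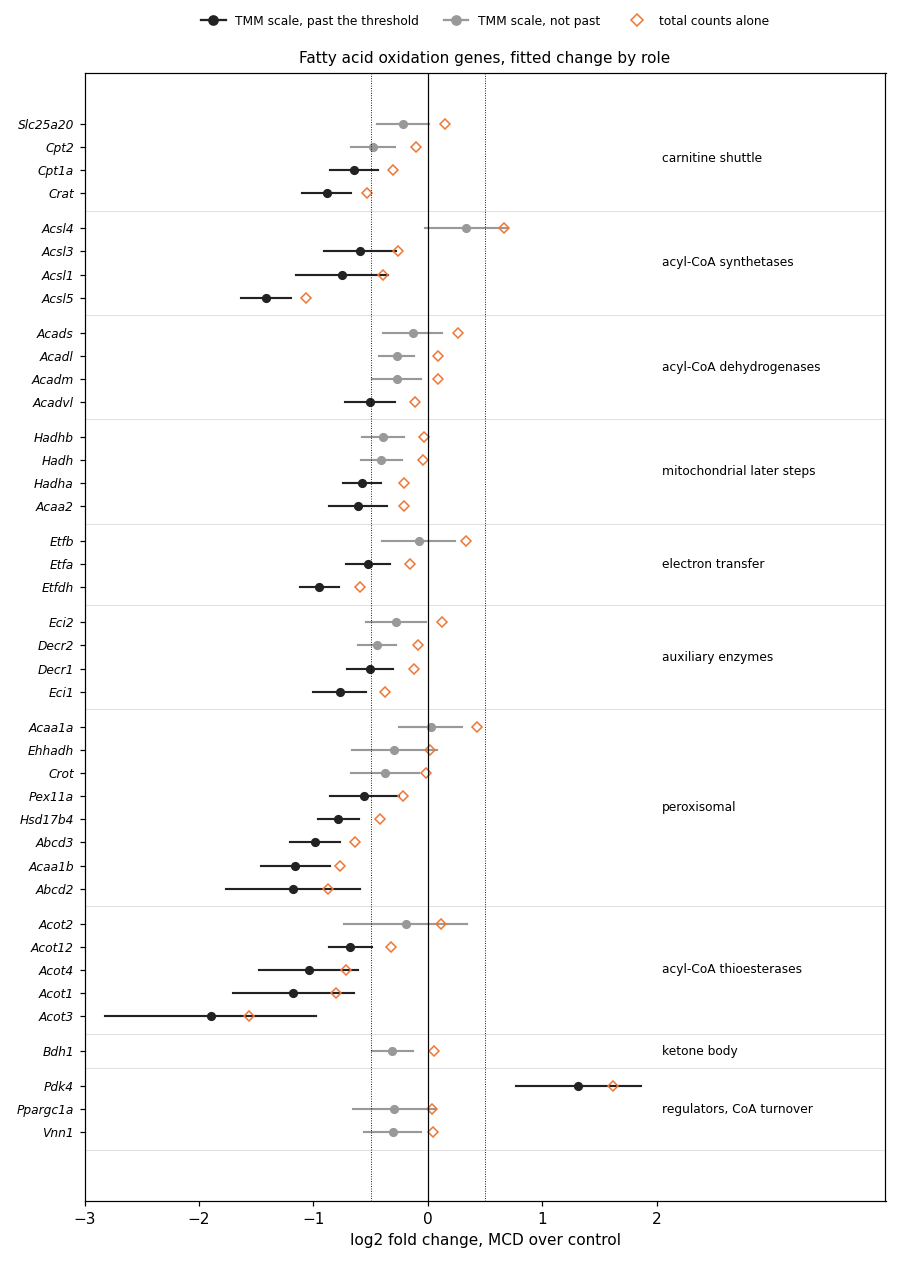
Fitted log2 fold change, MCD over control (horizontal axis), of the 40 members by role. Circles with lines are edgeR estimates with 95% confidence intervals on the TMM scale, black where the gene passed the threshold and grey where it did not, diamonds are the estimates with total counts alone, and dotted lines mark the fold limit of 0.5. Pdk4 lies far to the right of the rest at 1.31, Acot3 farthest to the left at -1.90, and 37 of 40 circles lie below 0.

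Compared per transcript length, the members spanned a wide range of abundance. In TPM, a unit that also divides the counts by the length of the longest annotated transcript, the highest medians in control livers were those of Acaa1b, at 2189, Acaa2, at 1073, Etfb, at 501, Cpt1a, at 395, and Etfa, at 379. Ppargc1a, at 2.83, Pdk4, at 5.50, and Acsl3, at 12.8, were the lowest. The same genes, Acaa1b (1319.6) and Acaa2 (934), led in MCD livers. Summed over the 40 members, the level was 8242 to 12101 TPM in control and 6597 to 9013 TPM in MCD livers, and the ranges overlapped. As TMM-scaled CPM the sums were 11667 to 18398 in control and 7272 to 10826.5 in MCD livers, without overlap. On the TMM scale, the median over the members of log2 CPM relative to the control mean ran from -0.28 to 0.18 in control libraries and from -0.86 to -0.30 in MCD libraries. The lowest was MCD replicate 2, which was the lowest MCD library for 27 of the 40 members, and MCD replicate 9 was the highest for 16. Among MCD libraries replicate 2 had the lowest hepatocyte marker sum (77822 CPM) and the highest macrophage marker sum (3380 CPM). Replicate 9 had the highest hepatocyte sum (111131 CPM) and the lowest macrophage sum (1424 CPM), and a link was not tested.

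Acyl-CoA synthetases, which activate fatty acids for every later step, held the largest fall outside the thioesterases. Of 4 members 3 were lower, and Acsl4 was not past the threshold. Acsl5, a long-chain synthetase of the endoplasmic reticulum and mitochondria (ENSMUSG00000024981), ran from 289 to 765 CPM (median 491) in control livers and from 165 to 205 CPM (median 184) in MCD livers. Its MCD values were tightly grouped, with a coefficient of variation of 5.89%, and all 12 lay below every control library. The log2 fold change was -1.41 (edgeR FDR 1.96e-11, SE 0.11), or 37.5% of the control level. Acsl1, the main long-chain synthetase of hepatocytes, covered 635 to 1754 CPM (median 905) in control and 302 to 1076 CPM (median 527) in MCD livers. The groups overlapped, with 8 of 12 MCD libraries below all control libraries. It fell by 0.75 (edgeR FDR 0.00171, SE 0.20), a call that was lost with total counts alone (-0.39). Acsl3, which is linked to lipid droplet formation, was much scarcer, at 14.3 to 45.6 CPM (median 27.2) in control and 10.4 to 22.8 CPM (median 18.7) in MCD livers. All but 1 MCD library lay within the control range. Its change of -0.59 (edgeR FDR 0.00157, SE 0.15) did not pass without control replicate 3 (-0.49), with upper-quartile factors or with total counts alone, and its exons overlap Utp14b on the same strand, a row with 25 to 164 counts. Acsl4, which prefers arachidonic acid, had a fitted change of 0.33 (edgeR FDR 0.0992, SE 0.18) that passed as higher only with total counts alone (0.66).

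The carnitine shuttle carries long-chain acyl groups into mitochondria and exports short ones. Of its 4 members 2 were lower. Carnitine acetyltransferase, Crat (ENSMUSG00000026853), which buffers acetyl-CoA, measured 119 to 207 CPM (median 156) in control and 59.7 to 111 CPM (median 88.7) in MCD livers. Every MCD library was below every control library. The change was -0.88 (edgeR FDR 5.02e-08, SE 0.10), and it passed in every scaling. Cpt1a, the outer-membrane transferase that limits the rate of mitochondrial uptake, ranged over 644 to 1194 CPM (median 1001) in control and 439 to 761 CPM (median 634) in MCD livers. Control replicate 12 gave the lowest control value, and 7 of 12 MCD libraries lay below it. The other control libraries, at 791 CPM or more, were above every MCD library. Cpt1a fell by 0.64 (edgeR FDR 5.18e-06, SE 0.10), and the call was lost with upper-quartile factors and with total counts alone (-0.30). Cpt2, its inner-membrane partner, stood at 172 to 334 CPM (median 199.5) in control and 123 to 179.6 CPM (median 149) in MCD livers. Here 10 of 12 MCD libraries were below all controls, yet the change of -0.48 (edgeR FDR 7.59e-05, SE 0.09) was within the fold limit. It was -0.37 without control replicate 12, the highest control, and just passed the limit in 5 of 24 leave-one-out fits (to -0.51, without control replicate 2, 5 or 8 or MCD replicate 1 or 9). Slc25a20, the carnitine-acylcarnitine carrier of the inner membrane and the gene whose site reads forward, was not past the threshold at -0.22 (edgeR FDR 0.0837, SE 0.11; -0.26 to -0.14 in leave-one-out fits), and its sign turned to 0.15 with total counts alone.

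The 4 acyl-CoA dehydrogenases, which open each turn of the mitochondrial spiral, had the smallest median change of the mitochondrial groups (-0.27). All 4 were fitted below 0 on the TMM scale, but only Acadvl stayed below 0 with total counts alone. Acadvl, for very long chains, was the 1 member called lower. It measured 332 to 808 CPM (median 414) in control and 256 to 347 CPM (median 309) in MCD livers. The top control value came from replicate 12, and 8 of 12 MCD libraries were below all controls. The change of -0.51 (edgeR FDR 0.000163, SE 0.11) sat at the fold limit and dropped under it in 13 of 24 fits that each left out 1 library, where it ran from -0.53 to -0.36. Acadm, for medium chains, gave 213 to 459 CPM (median 387) in control and 216 to 358 CPM (median 319) in MCD livers, ranges that overlapped almost wholly. Its change was -0.27 (edgeR FDR 0.0252, SE 0.10), not past the threshold, with a 95% confidence interval from -0.49 to -0.06. Acadl, for long chains, had 182 to 309.7 CPM (median 271) in control and 169 to 246 CPM (median 219.8) in MCD livers and likewise overlapped. Its change was -0.27 (edgeR FDR 0.0028, SE 0.07), and Acads, for short chains, was at -0.13 (edgeR FDR 0.364, SE 0.13). The sign of Acads depended on control replicate 12, since the value without it was 0.02.

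The later mitochondrial steps are run by the trifunctional protein, whose alpha and beta subunits are Hadha and Hadhb, by Hadh for shorter chains and by the thiolase Acaa2. The 2 subunit genes lie head to head on chromosome 5 (Hadha at chr5:30118304-30155162 on the minus strand, Hadhb at chr5:30155248-30184593 on the plus strand). Hadha ran from 385 to 676 CPM (median 489) in control livers and from 266 to 371 CPM (median 335) in MCD livers. The diets did not overlap, and the change was -0.57 (edgeR FDR 7.17e-07, SE 0.08). Without control replicate 12, the highest control, it was -0.49, just inside the fold limit. Hadhb had a change of -0.39 (edgeR FDR 0.000536, SE 0.09) and was not called. Acaa2, which releases acetyl-CoA, covered 645 to 1905 CPM (median 894) in control and 556 to 743 CPM (median 659) in MCD livers. The control maximum was again replicate 12, far above the control median. Acaa2 fell by 0.61 (edgeR FDR 0.000122, SE 0.12), and without that library the change was -0.45 and not called. Hadh measured 257 to 471 CPM (median 423) in control and 269.9 to 353 CPM (median 308) in MCD livers, with overlap. Its change was -0.41 (edgeR FDR 0.0002, SE 0.09), within the fold limit. All 4 stayed below 0 with total counts alone, where none was called.

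Electron transfer from the dehydrogenases needs the flavoprotein made of Etfa and Etfb and its oxidoreductase Etfdh, which passes electrons to ubiquinone. Etfdh (ENSMUSG00000027809) had 219.6 to 308 CPM (median 255) in control and 95.1 to 168 CPM (median 139) in MCD livers. The diets were fully apart, and Etfdh had the lowest coefficient of variation of any member in control livers (10.3%). The change was -0.95 (edgeR FDR 2.65e-10, SE 0.08), and it passed in every scaling and without control replicate 12 (-0.93). Etfa, whose promoter holds a site shown above, measured 185 to 357 CPM (median 311) in control and 163 to 241 CPM (median 212) in MCD livers. A low control library, replicate 3, made the ranges overlap. The change of -0.52 (edgeR FDR 2.02e-05, SE 0.09) was close to the limit and lost its call in 12 of 24 leave-one-out fits, over which it ran from -0.56 to -0.45. Etfb gave 175 to 691 CPM (median 267) in control and 237 to 312 CPM (median 272) in MCD livers. The MCD range lay inside the control range, whose maximum was replicate 12. Its change was -0.08 (edgeR FDR 0.662, SE 0.15), or 0.15 without replicate 12, so no direction can be read. Of the 50-base stretches of Etfb, 67.3% also occur in Gm45233, an overlapping row on the same strand with 0 to 9 counts per library and how reads shared between them were counted is not given.

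Unsaturated fatty acids need isomerases and reductases before they can be oxidized. Eci1, the mitochondrial enoyl-CoA isomerase, measured 108 to 294 CPM (median 153) in control and 81.3 to 109 CPM (median 89.2) in MCD livers. Of the MCD libraries 11 of 12 were below all controls. It fell by 0.77 (edgeR FDR 1.81e-06, SE 0.11), and its value without control replicate 12 was -0.62. Decr1, the mitochondrial dienoyl-CoA reductase, stood at 133 to 316 CPM (median 219.9) in control and 123 to 174 CPM (median 159) in MCD livers. The ranges overlapped through the low control replicate 3. The change of -0.50 (edgeR FDR 7.23e-05, SE 0.10) barely passed the fold limit and missed it in 15 of 24 leave-one-out fits (-0.53 to -0.41). Decr2, its peroxisomal counterpart, had 208 to 326 CPM (median 272) in control and 162 to 218 CPM (median 196) in MCD livers. With 9 of 12 MCD libraries below all controls, the change of -0.44 (edgeR FDR 2.79e-05, SE 0.08) was still inside the limit. Eci2 was not past the threshold (-0.28, edgeR FDR 0.0619, SE 0.13). Its value was -0.13 without control replicate 12, its highest control, and its sign turned with total counts alone (0.12).

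**Figure D3:**
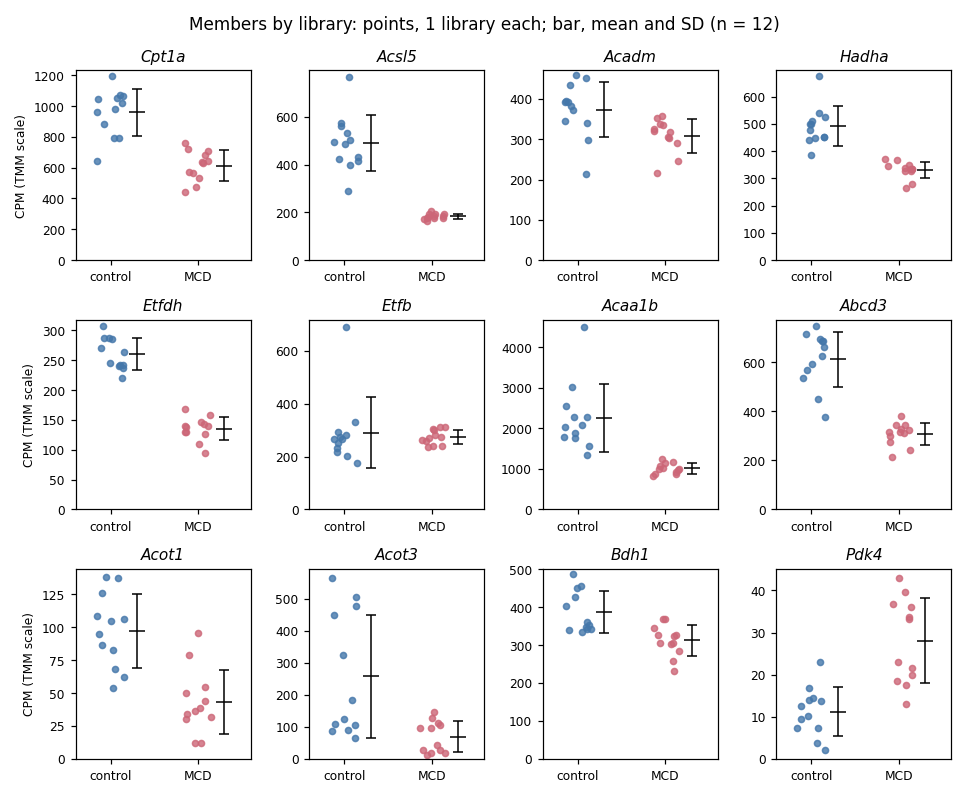
CPM on the TMM scale (vertical axis, from 0) in each control and MCD library for 12 members, with points for single libraries and bars for the mean and SD (n = 12 per diet). Acsl5, Hadha, Etfdh and Acaa1b separate the diets completely, Acot3 spreads widely within each diet, the isolated high control point of Etfb is replicate 12, and Pdk4 has 7 MCD points above all control points.

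Among the 8 peroxisomal genes 5 were lower, with a group median of -0.67 (-0.32 with total counts alone). Abcd2, a transporter of very-long-chain acyl-CoA across the peroxisomal membrane, was the scarcest, at 11.7 to 82.2 CPM (median 58.3) in control and 8.88 to 45.0 CPM (median 22.9) in MCD livers. Only 2 MCD libraries were below all controls, and control replicate 12 was the lowest control. The change was -1.18 (edgeR FDR 0.000814, SE 0.29), with a wide interval from -1.77 to -0.59, and it did not pass with total counts alone. Acaa1b, a peroxisomal thiolase (ENSMUSG00000010651), ran from 1348 to 4496 CPM (median 2054) in control livers and from 817 to 1244 CPM (median 1002) in MCD livers. No MCD library reached the lowest control. Its change was -1.16 (edgeR FDR 1.48e-07, SE 0.15), -0.99 without control replicate 12, the highest control. Abcd3, a second acyl-CoA transporter of the peroxisomal membrane, covered 378 to 746 CPM (median 641) in control and 213 to 381 CPM (median 315) in MCD livers. Of the MCD libraries 11 of 12 were below all controls. It fell by 0.99 (edgeR FDR 1.19e-08, SE 0.11) and passed in every scaling.

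The other peroxisomal members divided. Hsd17b4, the D-bifunctional protein that handles branched chains and bile acid precursors, was lower at -0.78 (edgeR FDR 1.8e-08, SE 0.09) with no overlap between the diets, though with total counts alone its -0.42 was inside the fold limit. Pex11a, which promotes peroxisome division, was lower at -0.56 (edgeR FDR 0.00182, SE 0.15), and lost its call in 5 of 24 leave-one-out fits (without MCD replicate 2, 4, 6, 8 or 12; -0.49 to -0.48). Nor did Pex11a pass with relative log expression factors (-0.495), DESeq2 (-0.495), upper-quartile factors (-0.41) or total counts alone (-0.21). Ehhadh, the L-bifunctional protein and a standard reporter of PPARα activity, was not past the threshold at -0.29 (edgeR FDR 0.165, SE 0.18; -0.35 to -0.18 in leave-one-out fits), with MCD libraries from 132 to 369 CPM (median 274). Crot, which makes carnitine esters for export to mitochondria, was at -0.37 (edgeR FDR 0.0275, SE 0.15). Acaa1a, the second thiolase, was at 0.02 (edgeR FDR 0.887, SE 0.13), and its sign changed in 3 leave-one-out fits, over which it ran from -0.01 to 0.22.

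Acyl-CoA thioesterases split acyl-CoA back into free acid and coenzyme A, and this group had the lowest median (-1.04, or -0.71 with total counts alone), with 4 of 5 lower. The genes Acot2 (chr12:83987861-83993873), Acot1 (chr12:84009490-84018371), Acot4 (chr12:84038379-84048601) and Acot3 (chr12:84052144-84060402) follow each other on the plus strand of chromosome 12. Acot3, a peroxisomal enzyme (ENSMUSG00000021228), had the largest fall of any member. It ran from 65.5 to 566 CPM (median 154) in control livers and from 12.6 to 146 CPM (median 69.0) in MCD livers. Its spread within each diet was also the widest, with coefficients of variation of 74.9% and 70.7%, and 6 of 12 MCD libraries were below all controls. The change was -1.90 (edgeR FDR 0.00066, SE 0.45). Acot1, the cytosolic long-chain enzyme, measured 53.8 to 138 CPM (median 99.7) in control and 11.97 to 95.9 CPM (median 37.5) in MCD livers. Here 9 of 12 MCD libraries were below all controls, and the change was -1.17 (edgeR FDR 0.000306, SE 0.26). Acot4, peroxisomal and active on dicarboxylic acyl-CoA, with a promoter site shown above, had 36.2 to 129.5 CPM (median 87.3) in control and 16.1 to 69.1 CPM (median 47.2) in MCD livers. Control replicate 12 was the lowest control, and 5 MCD libraries were below it. It fell by 1.04 (edgeR FDR 0.000113, SE 0.21).

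Acot12, on chromosome 13 and also with a site shown above, hydrolyses acetyl-CoA in the cytosol. It was lower at -0.68 (edgeR FDR 4.23e-07, SE 0.09), with 11 of 12 MCD libraries below all controls, and was inside the fold limit with total counts alone (-0.32). Acot2, the mitochondrial enzyme next to Acot1, did not pass at -0.19 (edgeR FDR 0.531, SE 0.26). Its value ran from -0.30 without MCD replicate 5 to -0.07 without MCD replicate 2, and its sign turned with total counts alone (0.11). The cluster is made of close copies, and 27.7% of the 50-base stretches of Acot2, 19.5% of Acot3 and 18.8% of Acot1 occur in another gene, so values within it are uncertain. Exons of Acot3 and Acot4 also overlap Gm49366 on the same strand, a row with 0 to 348 counts in control and 0 to 68 in MCD libraries.

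The level of some members followed sex-linked expression within the diets. Since no library is labelled with its sex, a score was used as a number beside diet: log2 CPM of Xist, which is made from the inactive X chromosome, minus the mean of 4 Y-linked genes. This fit was chosen after the data had been seen. The score served as a number alone, without calling any library male or female, and ran from -8.07 to 12.5 in control and from -7.24 to 11.1 in MCD livers. At an FDR of 0.01 the level of 3 members rose with the score (1.79% of all genes did) and that of 1 member fell (1.69% of all genes did). The rise was 0.12 per unit of score on the log2 scale for Acot3 (edgeR FDR 2.2e-09), 0.065 for Abcd2 (edgeR FDR 4.59e-05) and 0.043 for Acot4 (edgeR FDR 0.000947), and Acsl1 changed by -0.040 per unit (edgeR FDR 0.00117). Without control replicate 12 Acsl4 joined Acsl1, at -0.029 per unit. With the score in the fit the diet change of Acot3 was -1.92, and its SE was 0.18 in place of 0.45.

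Bdh1 is the only ketone body enzyme among the members. It interconverts acetoacetate and hydroxybutyrate in mitochondria. Control libraries had 334 to 488 CPM (median 357) and MCD libraries 233 to 369 CPM (median 316). The ranges overlapped, although 9 of 12 MCD libraries were below all controls. The change was -0.31 (edgeR FDR 0.00299, SE 0.09), inside the fold limit, and it turned to 0.05 with total counts alone.

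Pdk4, the kinase that inhibits pyruvate dehydrogenase and so favours fatty acids over glucose as fuel, was the member that rose (ENSMUSG00000019577). Control libraries ran from 2.19 to 22.9 CPM (median 11.3), and MCD libraries from 13.04 to 43.1 CPM (median 28.2). The lowest control was replicate 12, and 7 of 12 MCD libraries lay above all controls. The highest control was replicate 11, at 22.9 CPM, and the next was replicate 2, at 16.8 CPM. Of the MCD libraries only replicate 12 (13.04 CPM) lay below this second value. Its log2 fold change was 1.31 (edgeR FDR 0.000118, SE 0.27), a 2.49-fold rise, and 1.25 without control replicate 12. MCD replicate 4 carried 122 CPM of 4 summed adipocyte markers (Adipoq, Retn, Plin1 and Cfd), against at most 10.8 CPM in any control library. Adipoq, Retn and Plin1 had a median of 0 counts over all 24 libraries. Pdk4 in MCD replicate 4 was 21.6 CPM, below the MCD median, and the part of adipose tissue in the Pdk4 values was not tested. Ppargc1a, a coactivator of PPARα and of mitochondrial genes, was near the low end of detection for members, at 7.57 to 15.8 CPM (median 9.61) in control and 4.47 to 16.7 CPM (median 8.52) in MCD livers. The diets overlapped, and its change of -0.29 (edgeR FDR 0.149, SE 0.18; -0.37 to -0.19 in leave-one-out fits) did not pass. Vnn1, which frees pantothenate for coenzyme A synthesis, had 54.5 to 131 CPM (median 89.5) in control and 55.1 to 98.0 CPM (median 74.7) in MCD livers. It overlapped too and did not pass (-0.31, edgeR FDR 0.0312, SE 0.12). With total counts alone the signs of Ppargc1a and Vnn1 turned (0.04 and 0.05), while Pdk4 stayed higher in every scaling.

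Ratios of members inside a library do not depend on the library scaling. They were formed for 8 pairs chosen after their values had been seen, so they are descriptions without a test. The thiolases Acaa1b and Acaa1a lie near each other on chromosome 9 (chr9:119148023-119157093 on the minus strand and chr9:119339676-119350299 on the plus strand). Their log2 count ratio ran from 2.15 to 3.06 in control and from 1.10 to 1.62 in MCD livers without overlap, so Acaa1b outnumbered Acaa1a 5.47 to 1 in the median control and 2.57 to 1 in the median MCD liver. Since 35.5% of the 50-base stretches of Acaa1b and 16.2% of those of Acaa1a occur in another gene, the ratio also depends on how shared reads were counted. Etfdh relative to Etfb had a median log2 ratio of -0.02 in control (-1.54 to 0.51) and -0.99 in MCD livers (-1.34 to -0.78). Control replicate 12 was the library at -1.54, below every MCD library. Pdk4 relative to Cpt1a had a median of -6.43 in control and -4.45 in MCD livers, with 11 of 12 MCD libraries above all controls. The remaining pairs overlapped between the diets, with mean differences of -1.20 (Acot1 to Acot2), -0.58 (Acsl5 to Acsl1), -0.22 (Acadvl to Acadm), -0.18 (Hadha to Hadhb) and 0.14 (Abcd3 to Abcd2). Without control replicate 12 the Acadvl to Acadm difference was -0.14, that of Abcd3 to Abcd2 was 0.28, and every MCD library lay below every control for Etfdh to Etfb.

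**Figure D4:**
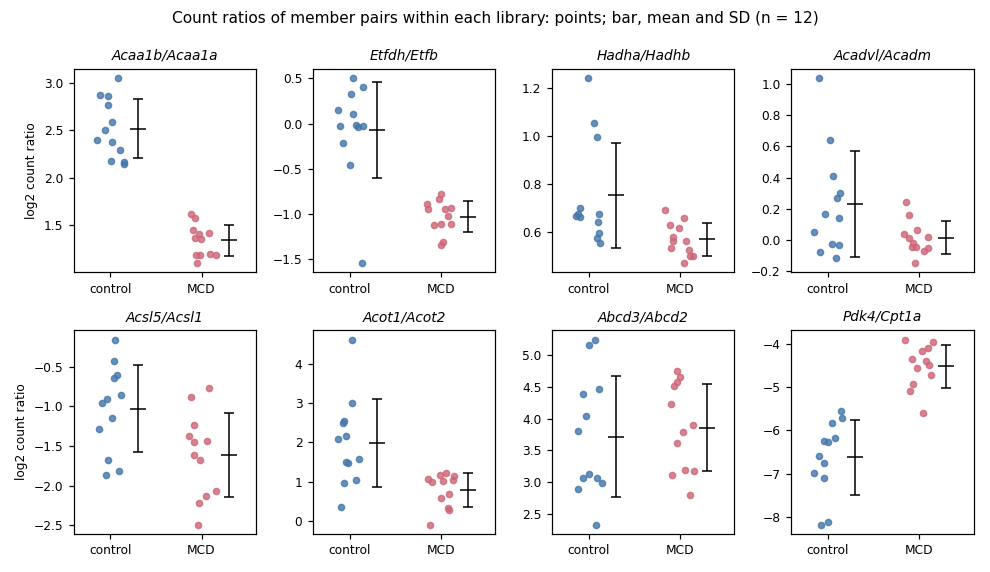
Log2 ratio of the counts of 2 members within each library (vertical axes, which do not start at 0), for 8 pairs in control and MCD libraries, with points for single libraries and bars for the mean and SD (n = 12 per diet). The Acaa1b to Acaa1a panel shows 2 separate groups, and the lone low control point of the Etfdh to Etfb panel is replicate 12.

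Genes of the same pathway that are not members were read as a list of 49, of which 47 were tested (Eci3 and Acot5 were too low). Of the 47, 20 were lower and 4 higher, with a median change of -0.48, where 19.1% of all tested genes were lower and 19.2% higher. With total counts alone 8 were lower (6.01% of all genes) and 6 higher (32.2%). The list held 4 further ketone body enzymes (1 higher), 15 genes of mitochondrial oxidation and transport (6 lower, 1 higher), 13 tested peroxisomal genes (8 lower), 5 tested thioesterases (1 higher) and 10 regulators (6 lower, 1 higher). Without control replicate 12, 16 genes of the list were lower, 5 of them mitochondrial, 6 peroxisomal and 5 regulators.

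The regulators included the receptor itself. Ppara measured 23.5 to 153 CPM (median 131) in control and 21.9 to 46.2 CPM (median 34.9) in MCD livers. The 11 other control libraries were at 66.7 CPM or more, above every MCD library, and control replicate 12, at 23.5 CPM, lay within the MCD range. Ppara fell by 1.76 (edgeR FDR 2.51e-08, SE 0.20), to 29.4% of the control level, and the change was -1.83 without that library and -1.44 with total counts alone. Ppargc1b, a coactivator related to Ppargc1a, had 4.78 to 12.1 CPM (median 6.00) in control and 2.26 to 4.40 CPM (median 3.08) in MCD livers. No MCD library reached the lowest control, and the change was -1.12 (edgeR FDR 3.92e-07, SE 0.15). Lpin1, a phosphatidate phosphatase that also acts as a coactivator of PPARα, was lower, at 49.9% of the control level (edgeR FDR 0.000352), but not with total counts alone (-0.67, FDR 0.0102). Creb3l3, a liver transcription factor of the fasting response, did not pass at -0.48 (edgeR FDR 0.00111, SE 0.12), a value that was -0.32 without control replicate 12, its highest control, and just passed the limit in 5 of 24 leave-one-out fits (to -0.51, without control replicate 4, 6, 8 or 11 or MCD replicate 9). Fgf21, a fasting hormone made by the liver under PPARα, rose instead. It ran from 2.60 to 16.3 CPM (median 5.55) in control and from 7.34 to 33.3 CPM (median 14.1) in MCD livers, with overlap. Its change was 1.16 (edgeR FDR 0.000789, SE 0.28).

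**Figure D5:**
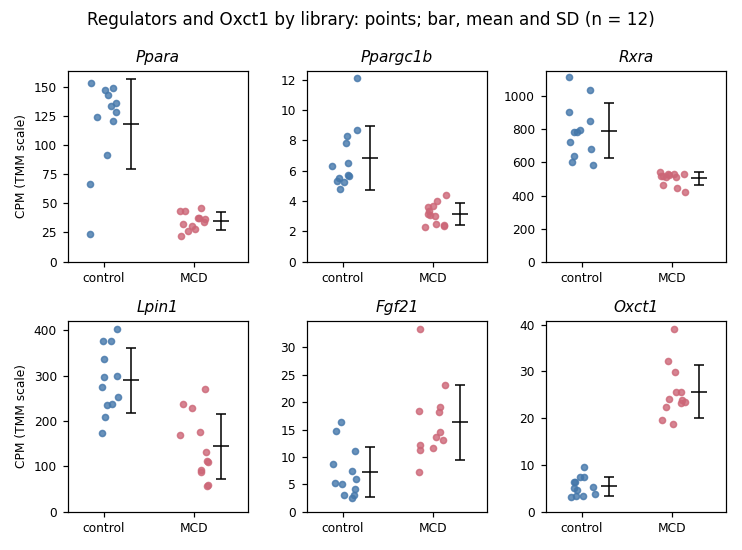
CPM on the TMM scale (vertical axis, from 0) of 5 regulators and the ketone body enzyme Oxct1 in each control and MCD library, with points for single libraries and bars for the mean and SD (n = 12 per diet). Ppara shows 1 control library, replicate 12, among the MCD values, Oxct1 and Fgf21 are the panels with higher MCD means, and Ppargc1b and Rxra separate the diets with MCD below.

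Oxct1, which breaks ketone bodies down and is known to be very low in hepatocytes, had 3.07 to 9.62 CPM (median 5.17) in control and 18.8 to 39.0 CPM (median 24.1) in MCD livers. Every MCD library was above every control, with a change of 2.22 (edgeR FDR 2.62e-11, SE 0.17). The other large rises were Acss1, a mitochondrial acetyl-CoA synthetase (2.37, edgeR FDR 1.26e-10, SE 0.20; 0.195 to 1.06 CPM in control and 2.20 to 4.18 in MCD livers), and Acot9, a mitochondrial thioesterase (1.24, edgeR FDR 4.34e-08, SE 0.15). These rises came with the rises of macrophage, mesenchymal and cholangiocyte markers given above, whose part in them was not tested.

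Among the falls of this list, Hacl1, which cleaves branched acyl-CoA in peroxisomes, was at -1.18 (edgeR FDR 1.18e-06, SE 0.17), and Acad11, an acyl-CoA dehydrogenase, at -1.07 (edgeR FDR 1.56e-10, SE 0.09) with no overlap between the diets. Nudt7, a peroxisomal coenzyme A diphosphatase, was called at -1.19 (edgeR FDR 0.00702, SE 0.37), but its control libraries spread from 44.1 to 589 CPM (median 199.7), and the call was lost in 12 of 24 leave-one-out fits (-1.29 to -0.95 over all 24, and -1.04 without control replicate 12), with limma-voom (FDR 0.0655) and in the other scalings, where the FDR ran from 0.0106 with relative log expression factors to 0.0586 with total counts alone. The Nudt7 call held with DESeq2 (-1.11, DESeq2 FDR 0.0043) and with the sex-linked score beside diet (-0.86, edgeR FDR 0.0005, SE 0.20). Its level fell with that score, by -0.092 per unit (edgeR FDR 2.27e-06).

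A last list held 9 PPARα targets outside oxidation, of which 3 were lower and 1 higher, beside 19.1% and 19.2% of all tested genes. Fabp1, the fatty acid carrier of the hepatocyte cytosol, covered 1928 to 8075 CPM (median 2776) in control and 820.4 to 1149 CPM (median 994) in MCD livers. The diets were fully apart, with a change of -1.73 (edgeR FDR 2.82e-09, SE 0.17), or -1.49 without control replicate 12, the highest control. Aldh3a2, a fatty aldehyde dehydrogenase (-0.89, edgeR FDR 9.4e-07, SE 0.13), and Cyp4a32, a fatty acid hydroxylase (-0.70, edgeR FDR 0.0002, SE 0.15), were the other lower genes. With total counts alone Cyp4a32 did not pass (-0.33, FDR 0.027), which left 2 lower. Hilpda, a lipid droplet protein, rose, with 1.16 to 4.37 CPM (median 2.17) in control and 4.47 to 9.86 CPM (median 5.91) in MCD livers and no overlap (1.31, edgeR FDR 6.02e-07, SE 0.18). The remaining 5, Cyp4a10, Cyp4a14, Cyp4a31, Angptl4 and Plin2, did not pass, with fitted changes from -0.75 to 0.67.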

How the data were processed

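Raw read counts per Ensembl gene were deposited by the authors, with 1 column for each of the 24 whole-liver poly(A) libraries and no normalization. The submitters' processing notes name bcl2fastq, STAR 2.7.3a and mm10. For human livers the study's methods name the exon quantification pipeline and PISCES for quantification. Which program counted the mouse reads, with which annotation and whether by strand, is not given in the sources used here, so genes that overlap on either strand are uncertain (16 members have such an overlap). The table held 56205 rows, 28652 of them 0 in every library, and 0 columns were left unused. Symbols came from GENCODE mouse release 21, which named 51745 rows, and rows without a symbol held 0.0808% of the counts. Promoter sequences came from RefSeq (GRCm38.p6).

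In R 4.3.3, edgeR 4.0.16 kept 14109 genes with filterByExpr by diet, applied TMM factors and compared MCD with control by the quasi-likelihood test (glmQLFit, glmQLFTest) over all 24 libraries without a covariate, with Benjamini-Hochberg adjustment over all genes tested. The limits (FDR 0.01 or less, absolute log2 fold change above 0.5) are the study's own for its human livers. SEs were taken from the F statistic (log2 fold change over its root), and intervals are at 95%. The fit was tested on simulated data. The members, the pathway, target and marker lists, the tests and the alternatives were chosen with earlier results of these data known. All members are accounted for, and 1 gene of the pathway list is not reported here. Full values are given for the 3 members of each role with the largest absolute change, and from the pathway and target lists the text names at most 6 rises and 6 falls past the threshold plus Ppara, Ppargc1b, Fgf21 and Creb3l3.

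Results were recomputed with DESeq2 1.42.0 and limma-voom (limma 3.58.1), with 3 other scalings (upper-quartile factors, relative log expression factors, total counts alone), without the low-count filter or with a minimum of 10 counts per library, with a block for replicate number, with the sex-linked score beside diet, at other limits, and without each library. Shared sequence was counted over 50-base stretches of each member's longest transcript, matched to the transcripts of other genes. Slc25a20 (9.96%) and Eci2 (9.45%) were also among the 8 members with more than 5% shared. Ratios used a pseudocount of 0.5 counts. Total counts of 16388650 to 24915175 per library left every member with at least 29 counts in each, and the biological coefficient of variation was 26.8%. No pair of libraries within a diet was identical, and the most similar pair differed by more than sampling noise (dispersion index 11.8). The labels do not say whether each library is a separate animal, so p-values measure the spread between libraries. Figures used matplotlib 3.10.9.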

Additional observations from a re-analysis of the deposited data

How the results depend on the processing

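Scaling set how many genes passed. With upper-quartile factors 13 members and 12 pathway genes were lower. With total counts alone 8 members and 8 pathway genes were lower, 2 members and 3 PPARα targets were higher, and the median over the members was -0.12, because that scaling moves all genes up by about 0.37. It also turned the sign of members that were not past the threshold: Slc25a20 (0.15), Acadl (0.090), Acadm (0.092), Acads (0.26), Etfb (0.33), Eci2 (0.12), Ehhadh (0.022), Acot2 (0.11), Bdh1 (0.054), Ppargc1a (0.038) and Vnn1 (0.046). Upper-quartile factors turned Acads (0.024) and Etfb (0.078), and Etfb was also above 0 with at least 10 counts in every sample (0.0047) and limma-voom (0.00029). A log2 limit of 1 left 6 members, 6 pathway genes and 1 target lower by construction. An FDR limit of 0.05 with no fold required gave 34 lower pathway genes (37% of all genes) and 2 higher targets (26.5% of all genes), and DESeq2 gave 2 higher targets. Over the other alternatives the lower members numbered 16 to 20, or 30 at that looser limit. Shares of all genes were worked out only for the main fit, upper-quartile factors, total counts alone, the looser limit and without control replicate 12. Counts in other settings, the log2 limit of 1 among them, are not set against such a share.

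The 24 fits without 1 library each gave 16 to 22 lower members and 1 higher, 16 to 24 lower and 4 higher pathway genes, 1 to 2 higher and 3 lower targets, and a median over the members from -0.53 to -0.42. The lowest counts of members and pathway genes were those without control replicate 12, where 2 members fell with the sex-linked score. Acads ranged from -0.18 to 0.019, Etfb from -0.12 to 0.15 and Acaa1a from -0.0088 to 0.22, and the cause was not tested. For single genes, 509 of the values under the other alternatives kept their direction and side of the threshold, 68 lost it, 11 gained it and 16 changed sign, and in the leave-one-out fits 1245 kept it, 60 lost it, 10 gained it and 5 changed sign.

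Replicate numbers are shared by the diets. Deviations from the diet means correlated at over 0.1 in 10 of 12 same-numbered pairs (r from -0.52 to 0.57, median 0.39, against -0.23 for other pairs). Same-numbered libraries were thus more alike than others in these deviations. Only 1 library correlated best with its own number, a count that cannot show a block shared by several numbers. The labels name no shared animal, litter or batch, so the main fit held no block. A replicate block gave 19 lower members and 1 higher (Acadvl and Decr1 lost their calls), and an Etfb value of 0.012. With the block Nudt7 (FDR 0.025) and the Kupffer cell markers Vsig4 (FDR 0.0151) and Marco (FDR 0.0239) did not pass, which left 3 of 6 Kupffer cell markers lower.

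Every member had at least 29 counts in each library. Among the lower members Acadvl, Decr1, Etfa, Pex11a, Hadha and Acsl3 lie within 0.1 of the fold limit.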
